A study of Mus musculus with 4 samples.

Results

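The lncRNAs described here were 49 long noncoding RNAs of low abundance in RNA sequencing of mouse hearts separated into mitochondria and the remaining tissue. They were selected on measured values: the Ensembl biotype was lncRNA and the mean normalized count over the 4 libraries lay from 20 to 50. The deposited table listed 15746 genes, of which 1013 were lncRNAs. In this range there were 53 lncRNAs, and Airn, Meg3, Rian and Snhg14, imprinted genes or hosts of small nucleolar RNAs, were left out. The study asked which RNAs are found in cardiac mitochondria. It compared isolated mitochondria (2 libraries, called mitochondria) with a remaining tissue fraction (2 libraries, called rest), all from WT hearts with no other genotype or treatment. According to the methods, the rest was the pellet of a low-speed spin of the homogenate, described there as cell debris. The rest was not free of mitochondrial RNA. Genes of the mitochondrial chromosome made up 63.22% and 67.51% of its normalized counts, against 97.57% and 93.53% in mitochondria. The mitochondria were pelleted from the supernatant of that spin, and the liquid left above them was removed. They were treated with digitonin, a detergent, and RNase A before RNA isolation, and their RNA was fragmented for an adjusted time. The sources do not say whether the 2 libraries of a fraction came from separate animals, so p-values measure the spread between these libraries, which may be technical.

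LncRNAs are transcripts without a recognised open reading frame for a protein. Many stay in the nucleus near the gene from which they were transcribed, some act in the cytoplasm, and others serve mainly as precursors of microRNAs or small nucleolar RNAs. The mitochondrial chromosome encodes its own mRNAs, rRNAs and tRNAs, whereas the lncRNAs here are all transcribed from nuclear chromosomes and would have to enter the organelle from outside.

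The values are normalized counts, that is counts divided by a size factor per library and rounded by the authors. A single read was worth 3.87 and 2.55 normalized counts in mitochondria and 0.264 and 0.365 in the rest, as read from the spacing of the values. The 49 lncRNAs together had 268 and 346 reads in mitochondria against 7192 and 4755 reads in the rest. The median member had 4 and 6 reads in mitochondria and 136 and 99 in the rest, and 32 members had 5 or fewer reads in at least 1 mitochondrial library. The mitochondrial values of this group therefore rest on few reads. The value that 3 reads give was 11.6 and 7.65 in mitochondria and 0.793 and 1.10 in the rest. Read numbers and the counting intervals given from them are approximate in the rest libraries, and cover counting error only, since copies made by PCR cannot be told apart.

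The fractions were checked with markers chosen for this purpose. The 4 mitochondrial mRNAs in the list summed to 2998112 and 5121549 normalized counts in mitochondria and 413892 and 458080 in the rest. The nuclear RNAs Malat1, Neat1 and Kcnq1ot1 summed to 13648 and 8699 in mitochondria and 42937 and 45482 in the rest, so that nuclear RNA was still present in mitochondria and the 3 nuclear RNAs were listed above 0 in every library. At an adjusted p-value under 0.05 no gene of the cardiomyocyte (7 genes), endothelial (5), fibroblast (4), leukocyte (4) and erythroid (3) lists and no nuclear RNA passed the test. Over all genes tested, 1.39% were lower and 2.16% higher at this threshold. A gene that did not pass may still differ. The median log2 fold change of mitochondria over rest was 0.88 for cardiomyocyte, -0.76 for endothelial, 0.97 for fibroblast and 0.79 for leukocyte genes. It was -2.92 for erythroid genes and -2.23 for nuclear RNAs. Myh6, Ryr2 and Vwf had the opposite sign to the median of their list. In the smooth muscle list Myh11 passed the test as lower, and in the mitochondrial list mt-Atp6 passed it as higher (log2 fold change 3.47). The log2 fold changes of mt-Nd1, mt-Cytb and mt-Co1 were 3.05, 3.15 and 3.16, and these genes did not pass the test. In a bulk fraction, fewer organelles or nuclei of a kind and less RNA in each cannot be told apart.

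**Figure D1:**
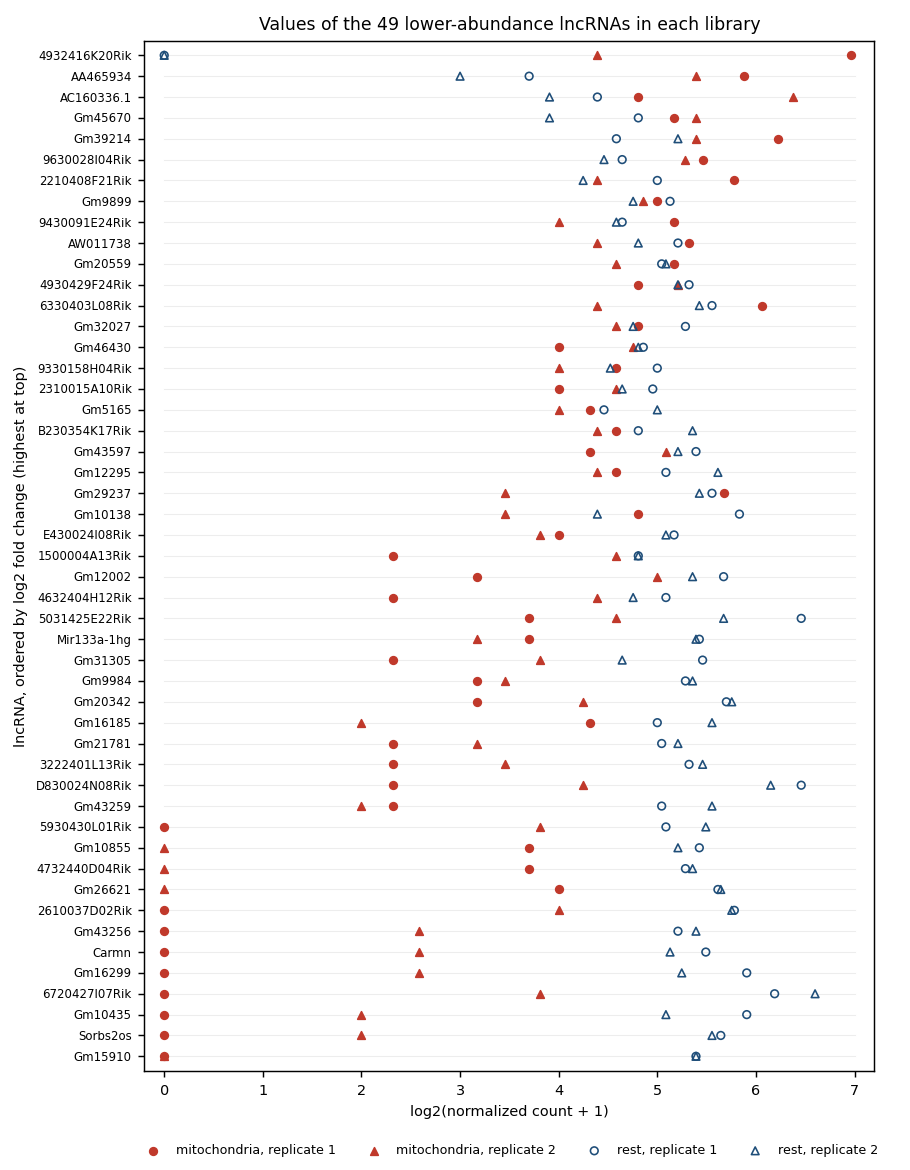
Each row is a lncRNA, ordered by log2 fold change, and each point is a library; the x axis is log2 of the normalized count plus 1, filled symbols are mitochondria, open symbols are the rest, circles are replicate 1 and triangles replicate 2. Both mitochondrial values lie below both rest values in 32 rows and above them in 6 rows, and 12 rows have a mitochondrial value of 0.

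Most of the lower-abundance lncRNAs had lower values in mitochondria than in the rest. The sum over the 49 was 1038 and 883 in mitochondria and 1901 and 1738 in the rest, and the median member was listed with 15 in both mitochondrial libraries and with 36 in both rest libraries. Both mitochondrial values were below both rest values for 32 members, above them for 6, and 11 overlapped. Over all 12150 genes tested, 33.4% lay below and 27.7% above in the same way. The log2 fold change of mitochondria over rest, from log2 of the normalized count plus 1, was negative for 42 members and positive for 7. Its median was -1.35 with an interquartile range from -3.14 to -0.26, against a median of -0.14 and a range from -0.74 to 0.49 over all genes tested.

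When tested with limma's moderated test over all genes and Benjamini-Hochberg adjustment, 2 members, Gm15910 and Gm43259, fell in mitochondria at an adjusted p-value under 0.05 and 0 rose. Over all genes tested, 1.39% were lower and 2.16% higher by this rule. At an unadjusted p-value under 0.05, 21 members were lower and 3 higher, against a background of 16.2% lower and 14.1% higher. A log2 fold change below -2 was found in 19 members and one above 2 in 2 members, against 5.79% and 1.51% of all genes tested. Both called members passed the filter on low values through the rest libraries alone, and none of the 40 members that passed it through both fractions was called in either direction (13 lower and 2 higher at an unadjusted p-value under 0.05). With a pseudocount of 10 in place of 1, which gives less weight to values near 0, the calls were 14 lower and 1 higher, with 4.77% of all genes tested lower and 4.41% higher, and with a pseudocount of 0.1 or any library left out there were 0 calls among all genes tested.

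All 49 passed the filter of 10 normalized counts in 2 libraries, 8 of them through the rest libraries alone and 1 through the mitochondrial libraries alone. These 9 had to differ between the fractions in order to be tested. Of the other 40 members, 34 had a negative and 6 a positive log2 fold change, with a median of -0.89. The mean count used to choose the members also went with their fold change: the 22 members with a mean from 20 to 25 had a median of -2.25, the 22 with a mean from 25 to 40 a median of -0.46 and the 5 above 40 a median of -1.92. Protein-coding genes in these steps of the mean had medians of -0.12, -0.17 and -0.18. The median of the group is thus strongly dependent on its lower limit.

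At the limits, the members with the lowest means were Gm21781 (mean 20) and 1500004A13Rik (mean 20.25), and just outside were Gm49477 (mean 19.75) and 9530026P05Rik (mean 19.5). The members with the highest means were 6720427I07Rik (mean 45.25) and D830024N08Rik (mean 44.75), and just outside were Gm44386, which the study named mitolnc (mean 51.25), and Gm49083 (mean 52.5). Gm44386 had 81 and 89 normalized counts in mitochondria and 18 and 17 in the rest.

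**Figure D2:**
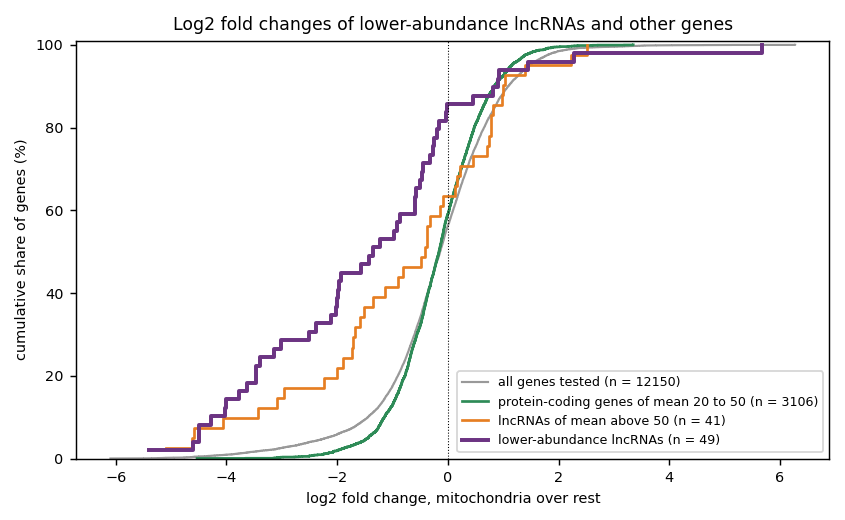
Cumulative share of genes (y axis, %) at or below each log2 fold change of mitochondria over rest (x axis) for the 49 lower-abundance lncRNAs, the 41 lncRNAs of mean above 50, the 3106 protein-coding genes of mean 20 to 50 and all 12150 genes tested. The curve of the lower-abundance lncRNAs reaches 85.7% at 0, that of the more abundant lncRNAs 63.4% and that of the protein-coding genes 59.1%.

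The lower-abundance lncRNAs were set beside genes that resemble them in type or in abundance. Of the 41 lncRNAs with a mean above 50, 63.4% had a negative log2 fold change, with a median of -0.42. Of the 3106 protein-coding genes with a mean from 20 to 50, 59.1% had a negative log2 fold change, with a median of -0.16, compared with 85.7% of the lower-abundance lncRNAs. The protein-coding genes of the same abundance also spread less, with an interquartile range from -0.67 to 0.36. Of them 1.87% lay below -2, against 38.8% of the lower-abundance lncRNAs. The share was 27.5% for the 40 lncRNAs that passed the filter on low values through both fractions. These are descriptions, and no test of the groups against each other was made.

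Gm15910 had the most negative fitted log2 fold change with a pseudocount of 1. With a pseudocount of 10 its value was -2.35 and that of 6720427I07Rik was -2.62, so the order depends on the pseudocount. It is encoded on the plus strand of chromosome 10 at 120857629 to 120863326 (GRCm38), with 3 exon blocks, opposite to introns of Msrb3, a methionine sulfoxide reductase, and without exon overlap. Its values were 0 and 0 in mitochondria and 41 and 41 in the rest. Its reads, 155 and 112, were therefore found in the rest alone. With 3 reads in each mitochondrial library as the limit of detection, it was at least 4.25-fold lower in mitochondria. With the higher limit of the 2 mitochondrial libraries the bound was 3.53-fold. The log2 fold change was -5.39 ± 0.57 (SE), adjusted p = 0.0427. Replicate values were identical in both fractions, so this SE and p-value rest on the variance that limma's moderated test takes from other genes. Msrb3 itself was listed with 546 and 474 in mitochondria and with 312 and 338 in the rest, the opposite direction (log2 fold change 0.65, adjusted p = 0.0931).

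Gm43259 is a transcript without introns that lies on the minus strand of chromosome 3 at 104163924 to 104167200, inside an intron of Magi3, a scaffold protein at cell junctions, and on the same strand. Its values in mitochondria were 4 and 3, which is a single read in each library, and those in the rest were 32 and 46. It fell by 3.14 on the log2 scale (SE 0.45, adjusted p = 0.0469). From the reads, the ratio of rest to mitochondria was 12.3 with a counting interval from 3.37 to 102. Another transcript without introns, Gm43256 at 104187103 to 104190193, also lies in an intron of Magi3 on the same strand and was listed with 0 and 5 in mitochondria and 36 and 41 in the rest (log2 fold change -4.01, adjusted p = 0.0768). Magi3 itself had 349 and 283 in mitochondria and 463 and 494 in the rest, with a log2 fold change of -0.60 (adjusted p = 0.118). The mitochondrial values of Gm43256 came from 0 and 2 reads. Both transcripts had more negative fold changes than the gene that contains them. They passed the filter on low values through the rest libraries alone, so they had to be lower in mitochondria in order to be tested.

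The 120 bases at the 5′ end of Gm43259, chr3:104167081-104167200 on the minus strand, and 120 bases of Gm15910, chr10:120862159-120862278 on the plus strand, are shown to identify the members that passed the test. Capitals mark 80 bases of Gm15910 that at least 243 other annotated genes hold at 95% identity or more over at least 75 bases, and they resemble a short interspersed repeat of the B1 family. Stretches of this kind covered 167 of the 2971 bases of the transcript, and the authors left out reads that aligned to several places. For Gm43259 no stretch was shared with another gene. Sequences were taken from GENCODE M21.
Gm43259: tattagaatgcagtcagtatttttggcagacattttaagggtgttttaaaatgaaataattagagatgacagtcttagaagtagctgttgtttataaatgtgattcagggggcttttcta
Gm15910: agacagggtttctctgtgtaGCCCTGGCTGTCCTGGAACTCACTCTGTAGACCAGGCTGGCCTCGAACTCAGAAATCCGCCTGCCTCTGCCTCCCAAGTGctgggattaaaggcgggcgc

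Sorbs2os, Gm10435 and Gm16299 were among the members with the lowest values in mitochondria. Sorbs2os, on chromosome 8 at 45723325 to 45819297, is transcribed opposite to Sorbs2, an adaptor protein of the Z-disc, and shares 1051 exonic bases with it. Its values were 0 and 3 in mitochondria and 49 and 46 in the rest (log2 fold change -4.60 ± 0.80 (SE), adjusted p = 0.0548). The fractions did not overlap, and the mitochondrial values came from 0 and 1 reads. Sorbs2 fell as well, from 1707 and 1882 in the rest to 821 and 775 in mitochondria (log2 fold change -1.17, adjusted p = 0.0461). Gm10435 on chromosome 11, with 3 exon blocks, had 0 and 3 in mitochondria and 59 and 33 in the rest (log2 fold change -4.50, adjusted p = 0.0586).

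Gm16299 on chromosome 19 runs opposite to introns of Rbm20, a splicing factor of titin and other sarcomere transcripts. Its values were 0 and 5 in mitochondria and 59 and 37 in the rest (log2 fold change -4.28, adjusted p = 0.0710). Rbm20 had 775 and 564 in mitochondria and 1146 and 928 in the rest. Sorbs2os and Gm16299 thus had more negative fold changes than the genes on the other strand, and neither Sorbs2os, Gm10435 nor Gm16299 passed the test. All of them passed the filter on low values through the rest libraries alone, so they had to be lower in mitochondria in order to be tested. The use of strand in the counting is not given in the sources used here. According to the methods, the authors left out reads that overlapped several genes, so that without strand the reads from exonic bases shared by Sorbs2 and Sorbs2os would count for neither.

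**Figure D3:**
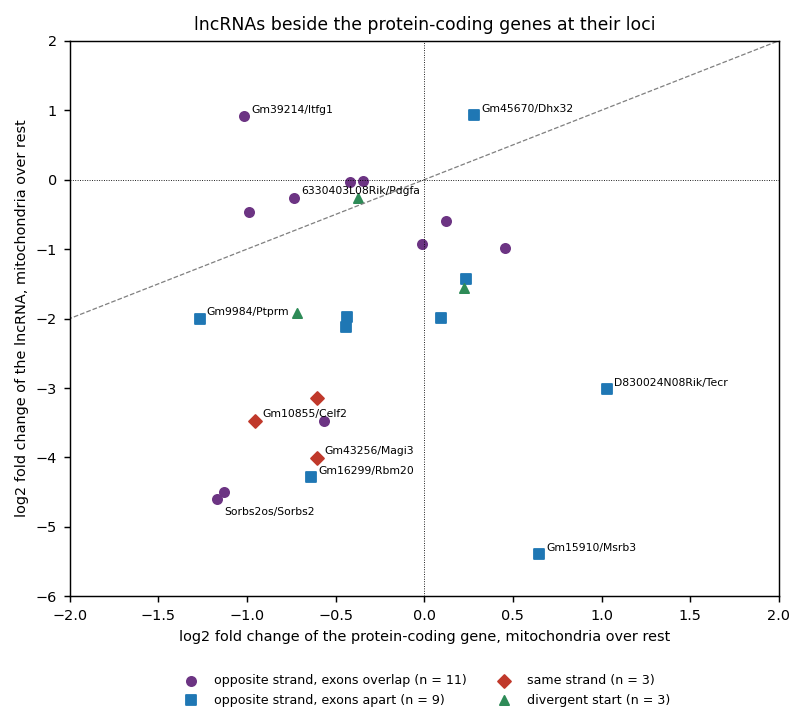
Each point is a lncRNA and a protein-coding gene at its locus, with the log2 fold change of the gene on the x axis and that of the lncRNA on the y axis (mitochondria over rest); symbols give the position of the lncRNA, and the dashed line marks equal fold changes. Of the 26 pairs, 19 lie below the line and 7 above it, and the protein-coding genes stay between -1.27 and 1.03. Gm15910, Sorbs2os, Gm10435, Gm16299, Gm43256 and Gm43259 passed the filter through the rest libraries alone.

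A protein-coding gene that was tested lay at the locus of 26 members, on the opposite strand, on the same strand or with a start within 2000 bases on the opposite strand. The median log2 fold change was -1.95 for these lncRNAs and -0.44 for their neighbours, and the lncRNA was the lower of the pair in 19 of 26. These counts include Gm15910, Sorbs2os, Gm10435, Gm16299, Gm43256 and Gm43259, which passed the filter through the rest libraries alone. Those members had to be lower in mitochondria in order to be tested, and Gm15910 and Gm16299 lie opposite to introns. For the 9 lncRNAs opposite to introns the lncRNA was lower in 8, with a median of -2.01 against 0.09 for the genes. The exception was Gm45670, opposite to Dhx32, a helicase, with 35 and 41 in mitochondria and 27 and 14 in the rest (log2 fold change 0.92, adjusted p = 0.213). A pair of this class with fold changes far apart was D830024N08Rik, with 4 and 18 in mitochondria and 87 and 70 in the rest (log2 fold change -3.02, adjusted p = 0.0725). It lies opposite to introns of Tecr, an enzyme of very-long-chain fatty acid synthesis, which had 364 and 365 in mitochondria and 184 and 172 in the rest (log2 fold change 1.03, adjusted p = 0.0511).

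For the 11 lncRNAs that share exonic bases with a protein-coding gene on the opposite strand, the lncRNA was lower in 6 pairs and higher in 5, with medians of -0.59 and -0.56. Those with values near their neighbours included 6330403L08Rik, which shares 813 exonic bases with Pdgfa, a growth factor gene. It was listed with 66 and 20 in mitochondria and 46 and 42 in the rest, and the groups overlapped (log2 fold change -0.26, 95% confidence interval from -1.84 to 1.31). Without mitochondrial replicate 2 its log2 fold change was 0.58. Gm9899, opposite to the potassium channel gene Kcnk3, had 31 and 28 in mitochondria and 34 and 26 in the rest (log2 fold change -0.01, interval from -0.82 to 0.79). Also with overlapping groups, 9430091E24Rik, opposite to Pdpr, a regulatory subunit of pyruvate dehydrogenase phosphatase, had 35 and 15 against 24 and 23. Gm29237, opposite to the spectrin gene Sptbn1, had 50 and 10 in mitochondria and 46 and 42 in the rest. Well below its neighbour was 4732440D04Rik, opposite to the autophagy gene Rb1cc1, with 12 and 0 in mitochondria and 38 and 40 in the rest (log2 fold change -3.47, adjusted p = 0.157).

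Hosts of microRNAs formed another group. 6720427I07Rik, on the minus strand of chromosome 13 at 48532905 to 48546500, had the highest mean of the members and holds the genes of let-7a-1, let-7f-1 and let-7d in its exons. The host had 0 and 13 in mitochondria and 72 and 96 in the rest, so that the fractions did not overlap but the mitochondrial libraries differed from each other (log2 fold change -4.49 ± 1.30 (SE), adjusted p = 0.106). From 5 reads in mitochondria and 535 in the rest, the ratio of rest to mitochondria was 10.7 with a counting interval from 4.54 to 33.0. The 3 mature microRNAs of the 5′ arms (RefSeq, GRCm38.p6) are shown because they are the known product of this transcript. Capitals mark the seed, bases 2 to 8, which is GAGGUAG in all of them.
let-7a-5p: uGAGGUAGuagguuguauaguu
let-7f-5p: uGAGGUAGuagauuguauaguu
let-7d-5p: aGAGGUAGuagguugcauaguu

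Kits for total RNA of this type are not made to capture mature microRNAs, and the values refer to the long host transcript. Gm26621 on chromosome 15, which overlaps Mir30b by 16 exonic bases, had 15 and 0 in mitochondria and 48 and 49 in the rest (log2 fold change -3.63, adjusted p = 0.161). Mir133a-1hg on chromosome 18 at 10781723 to 10785883 is the host of Mir133a-1 and Mir1a-2, whose microRNAs are abundant in striated muscle. This transcript had 12 and 8 in mitochondria and 42 and 41 in the rest (log2 fold change -1.97 ± 0.37 (SE), adjusted p = 0.0574). Its mitochondrial values stand for 3 reads in each library, the number used here as the limit of detection. From the reads, the ratio of rest to mitochondria was 4.50 with a counting interval from 2.04 to 12.4. In the list of other microRNA host lncRNAs, 7 were tested, with a median log2 fold change of -1.59. Ftx alone passed the test, as lower, against 1.39% of all genes tested. It had 0 and 0 in mitochondria and 26 and 22 in the rest (adjusted p = 0.0469). Mir22hg alone had a positive log2 fold change (0.15).

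Carmn was the member with the best known role in the heart, as a regulator of cardiac and smooth muscle differentiation, and its locus on chromosome 18 at 61649625 to 61665537 is also the source of miR-143 and miR-145. It was listed with 0 and 5 in mitochondria and with 44 and 34 in the rest (log2 fold change -4.02 ± 0.97 (SE), adjusted p = 0.0769). The mitochondrial values came from 0 and 2 reads. Carmn passed the filter on low values through the rest libraries alone, so it had to be lower in mitochondria in order to be tested. Of the smooth muscle genes, Myh11 fell and Acta2 did not pass the test. Myh11 had 43 and 61 in mitochondria and 380 and 800 in the rest (log2 fold change -3.40, adjusted p = 0.0427), and Acta2 had 93 and 362 against 208 and 574 (adjusted p = 0.484). Their sums were 136 and 423 in mitochondria and 588 and 1374 in the rest, and their part in the value of Carmn was not tested. Of the other cardiac lncRNAs in the list, Mhrt, the antisense transcript of the myosin heavy chain locus, fell from 231 and 223 in the rest to 89 and 87 in mitochondria (adjusted p = 0.0428). Hand2os1 and Bvht did not pass the test.

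The 17 members with no protein-coding gene over them or at their start had a median log2 fold change of -0.57, with 14 negative and 3 positive values. The 2610037D02Rik transcript had 0 and 15 in mitochondria and 54 and 53 in the rest (log2 fold change -3.77, adjusted p = 0.152). Gm21781, the member nearest the lower limit, had 4 and 8 in mitochondria and 32 and 36 in the rest (log2 fold change -2.38, adjusted p = 0.0605). Like Carmn, it passed the filter on low values through the rest libraries alone. Of the 3 members that start close to a protein-coding gene on the opposite strand, 5031425E22Rik, which shares its start region with the chromatin gene Kmt2e, had 12 and 23 in mitochondria and 87 and 50 in the rest (log2 fold change -1.92, adjusted p = 0.0785). AW011738, counted among the 17, had 39 and 20 in mitochondria and 36 and 27 in the rest, and its groups overlapped. GENCODE M21 lists its identifier as protein-coding and at another position, so that its type and place are uncertain.

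2210408F21Rik and Lncpint, a lncRNA induced by p53, start 137 bases apart on opposite strands of chromosome 6 and had different values. 2210408F21Rik was listed with 54 and 20 in mitochondria and 31 and 18 in the rest, and the groups overlapped (log2 fold change 0.46, interval from -1.08 to 2.003). Lncpint fell from 234 and 205 in the rest to 4 and 15 in mitochondria (log2 fold change -4.62, adjusted p = 0.0427). The difference between these transcripts was not tested. In the list of nuclear-retained lncRNAs, 10 were tested, with a median log2 fold change of -2.12. Lncpint and Ftx passed the test as lower and none as higher, against 1.39% and 2.16% of all genes tested. Pvt1 went the other way, with 23 and 23 in mitochondria and 5 and 4 in the rest (log2 fold change 2.13, adjusted p = 0.0637).

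AA465934, a host of a small nucleolar RNA, had higher values in mitochondria than in the rest, unlike the microRNA hosts among the members. It lies on the plus strand of chromosome 11 at 83291699 to 83294632 and holds Snord7, a small nucleolar RNA that guides the methylation of other RNAs, in an intron. In mitochondria it had 58 and 41 and in the rest 12 and 7, and the fractions did not overlap. The log2 fold change was 2.29 ± 0.42 (SE), with an adjusted p of 0.0568 that missed the threshold. With 15 and 16 reads in mitochondria and 45 and 19 in the rest, the ratio of rest to mitochondria was 0.206 with a counting interval from 0.132 to 0.327. AA465934 has 711 exonic bases. Protein-coding genes of mean 20 to 50 with under 2000 exonic bases had a median log2 fold change of 0.79. Members of that length had a median of -0.14. Whether length had a part in the value of AA465934 was not tested. The first exon of its annotated transcript that starts furthest upstream, and the first 60 bases of the second exon in capitals, are shown as the spliced sequence from which reads of the mature transcript would come, between 83291699 and 83292026 of chromosome 11. It shares no stretch with another gene.
AA465934: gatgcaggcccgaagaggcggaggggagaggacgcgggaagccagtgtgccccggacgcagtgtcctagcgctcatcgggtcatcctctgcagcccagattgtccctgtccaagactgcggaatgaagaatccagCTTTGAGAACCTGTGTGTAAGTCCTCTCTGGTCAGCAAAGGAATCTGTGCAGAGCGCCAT

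Positive fold changes were found for 7 members, of which 6 had both mitochondrial values above both rest values. The largest was that of 4932416K20Rik, on chromosome 8 at 104794928 to 104799052, with 124 and 20 normalized counts in mitochondria and 0 and 0 in the rest. With 3 reads per library as the limit of detection in the rest, its mean was at least 76.2-fold higher in mitochondria. By mitochondrial replicate 2 alone it was at least 21.2-fold higher. Both bounds hold only on the scale of the deposited values, and scaling to library totals gave a smaller difference. On the deposited scale its log2 fold change was 5.68 ± 1.00 (SE), adjusted p = 0.0549. The mitochondrial values stand for 32 and 8 reads, so the 2 libraries differed severalfold. It passed the filter on low values through the mitochondrial libraries alone. It was the only member still listed with a positive log2 fold change, 3.77, when libraries were scaled to their totals including the mitochondrial chromosome. Such scaling shifted the median over all genes to -3.93, and scaling without the mitochondrial chromosome shifted it to -0.98. Relative to the median of all genes, 9 members lay above it under each of the 3 scalings.

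The last 120 bases of an annotated 4932416K20Rik transcript of 2190 bases, chr8:104798933-104799052 on the plus strand, hold a repeat, shown because it is the part of the transcript that other genes share. Reads that aligned to several places were left out of the counts by the authors. Capitals mark 80 bases that at least 246 other annotated genes hold at the identity and length given above, and they resemble the B1 family in the orientation opposite to that in Gm15910.
4932416K20Rik: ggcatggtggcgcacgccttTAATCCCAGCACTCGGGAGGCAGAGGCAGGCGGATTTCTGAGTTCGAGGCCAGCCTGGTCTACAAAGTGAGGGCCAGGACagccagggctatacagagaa

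AC160336.1 on chromosome 14 was listed with 27 and 82 in mitochondria and 20 and 14 in the rest (log2 fold change 1.44, adjusted p = 0.190). Its model is a single block of 93147 bases that shares stretches with 587 other genes, from which reads that aligned to several places were not counted. Gm39214, which shares 316 exonic bases with Itfg1 on the opposite strand, had 74 and 41 in mitochondria and 23 and 36 in the rest (log2 fold change 0.91, adjusted p = 0.220), while Itfg1 had 43 and 59 against 94 and 113. The 9630028I04Rik transcript on chromosome 17 had close replicates, with 43 and 38 in mitochondria and 24 and 21 in the rest (log2 fold change 0.82, adjusted p = 0.146). No member shared a stretch of 75 bases at 95% identity with a gene of the mitochondrial chromosome, and no member lay on it.

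**Figure D4:**
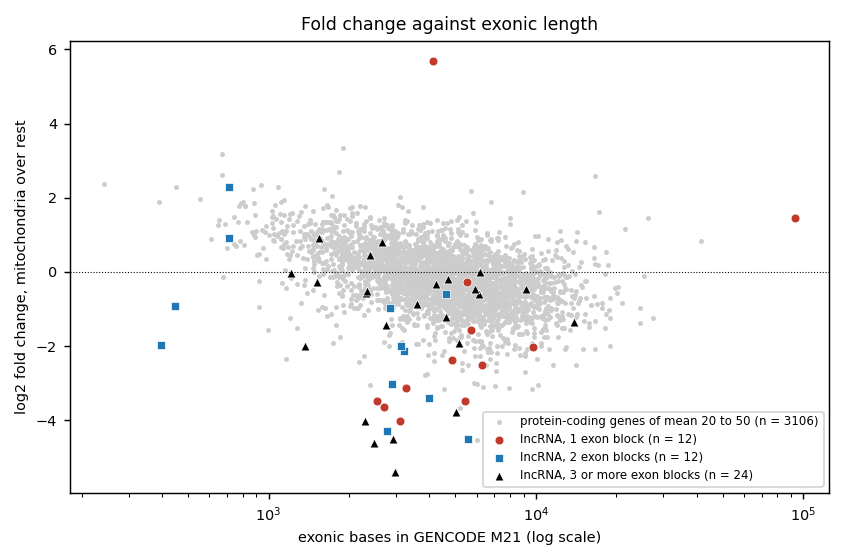
Log2 fold change of mitochondria over rest (y axis) against exonic bases per gene (x axis, log scale); grey points are the 3106 protein-coding genes of mean 20 to 50, and coloured symbols are 48 lncRNAs by number of exon blocks. Grey points slope downwards with length, and 13 of the 20 lncRNAs with 2000 to 4000 exonic bases lie below -2, against 6 of 952 protein-coding genes of that length. Of the 13, Gm15910, Sorbs2os, Gm10435, Gm16299, Carmn, Gm43256 and Gm43259 passed the filter on low values through the rest libraries alone. They had to be lower in mitochondria in order to be tested.

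The members were also compared by structure, for the 48 whose position in GENCODE M21 matched the deposited one. Exonic length, the bases covered by any annotated exon, ranged from 395 to 93147 with a median of 3162. The 12 members with 1 exon block had a median log2 fold change of -2.44 and the 12 with 2 exon blocks one of -1.99, against -0.58 for the 24 with 3 or more. Among protein-coding genes of the same abundance, the order was different, with medians of 0.12, 0.05 and -0.17. By length, the 8 members under 2000 exonic bases had a median of -0.14, the 20 from 2000 to 4000 one of -3.08 and the 20 above 4000 one of -0.91. The protein-coding genes had medians of 0.79, 0.07 and -0.39 in these classes. The lncRNA medians include the 8 members that passed the filter on low values through the rest libraries alone. Those 8 had to be lower in mitochondria in order to be tested, and all but Gm21781 have 2000 to 4000 exonic bases. Spearman's rho between exonic length and log2 fold change was -0.0543 over the 48 lncRNAs and -0.453 over the 3106 protein-coding genes, which all come from the same 4 libraries.

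The 6 members that overlap a protein-coding gene on its own strand, most of them intronless transcripts in introns, had a median log2 fold change of -3.26. Both mitochondrial values were below both rest values in 5 of them, against 33.4% of all genes tested. Gm10855 in an intron of Celf2, an RNA-binding protein gene, was of this kind, with 12 and 0 in mitochondria and 42 and 36 in the rest (log2 fold change -3.47, adjusted p = 0.157). Celf2 had 147 and 138 in mitochondria and 252 and 304 in the rest. The exception was AC160336.1. Of the 5, Gm43256 and Gm43259 passed the filter through the rest libraries alone, so they had to be lower in mitochondria in order to be tested. Reads from the introns of the containing gene and reads from such a transcript cannot be told apart.

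The other 22 members, Gm10855 and 1500004A13Rik included, had log2 fold changes from -3.47 for Gm10855 to -0.19 for Gm20559. Their sign follows from the naming of the 10 highest fold changes, which include all positive ones. Their values ran from 0 to 36 in mitochondria and from 20 to 56 in the rest. Among these Gm9984, opposite to introns of the phosphatase gene Ptprm, had the smallest adjusted p-value, with 8 and 10 in mitochondria and 38 and 40 in the rest (log2 fold change -2.01, adjusted p = 0.0545). Ptprm fell as well, from 668 and 572 in the rest to 279 and 235 in mitochondria (log2 fold change -1.27, adjusted p = 0.0473). The 3222401L13Rik transcript, within the protocadherin gamma region of chromosome 18, had 4 and 10 against 39 and 43 (log2 fold change -2.50, adjusted p = 0.0634), and 5930430L01Rik had 0 and 13 against 33 and 44.

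Per kilobase of exonic length, the levels in the rest ranged widely. Mir133a-1hg had 105 normalized counts per kilobase in the rest and 25.3 in mitochondria, from 3 reads in each mitochondrial library and an exonic length of 395 bases. AA465934 had 69.6 per kilobase in mitochondria (81.6 and 57.7 by library) against 13.4 in the rest. Gm29237 had 67.0 in mitochondria (112 and 22.3 by library) against 98.2 in the rest, so the order of the pair in mitochondria differed between the libraries. Sorbs2os and Gm10435 had 0.606 and 0.513 per kilobase in mitochondria and 19.2 and 15.7 in the rest.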

How the data were processed

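RNA sequencing of the mitochondrial and rest fractions of WT mouse hearts was analysed (2 libraries each). Per the labels, the authors trimmed reads (Trimmomatic 0.39), aligned them to mm10 (STAR 2.7.10a), counted them per gene (featureCounts 2.0.2) and normalized the counts (DESeq2 1.30.1). The study's text gives other versions for some tools. The deposited score of each gene is this normalized count, which the authors rounded to an integer; raw counts were not used here, so no count test was run. Reads behind each value were estimated from the spacing of the values in each library.

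The 12150 genes that reached 10 normalized counts in 2 or more libraries were tested with limma 3.58.1 (R 4.3.3) on log2(value + 1) with a mean-variance trend and Benjamini-Hochberg adjustment over these genes. The smallest p of a two-sided exact permutation test of 2 libraries against 2 is 0.333. The script was tested on simulated data. Positions, exons and transcripts came from GENCODE M21 (GRCm38), in which all 49 identifiers matched, 48 at the same position; shared stretches were found with blastn 2.17.0 (95% identity over 75 bases). Mature microRNA sequences came from RefSeq. Alternatives covered scaling, pseudocount, filter, replicate block, each library left out and the limits on the mean.

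The members and gene lists were chosen with earlier results of these data known. Members named are those past the threshold, the 10 highest and 10 lowest fold changes, the 5 largest means, those with a gene name that is not a number, up to 5 each of the exon-antisense and small-RNA-host members by mean, those at the limits, and up to 3 with 5 or fewer mitochondrial reads and the largest rest values. Gm10855, Gm20559, Gm9984, 3222401L13Rik, 5930430L01Rik and 1500004A13Rik were named after their values were seen. A neighbouring gene of 1 member is not reported here.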

Additional observations from a re-analysis of the deposited data

How the results depend on the processing

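Libraries were scaled to their totals without the mitochondrial chromosome, which gave 32 members lower and 1 higher in mitochondria with a median log2 fold change of -2.16 (31.4% of all genes lower and 1.06% higher), and to their totals with it, which gave 47 lower and 1 higher with a median of -4.91 (98.9% and 0.0165% of all genes; medians over all genes -0.98 and -3.93). Relative to the median of all genes, the median of the members was -1.21 as reported and -1.18 and -0.98 under these scalings. With the replicate block, 4 were lower and 2 higher (AA465934 and 4932416K20Rik), against 2.54% and 3.87% of all genes; over 12150 genes the replicate differences of the fractions correlated with r = 0.130, and the numbers are not said to pair the libraries. With a pseudocount of 10, 14 were lower and 1 higher (median -0.88), and with 0.1, 0 were lower (median -1.48; 19 of the members at an unadjusted p-value under 0.05, and 0 genes called in all). With a filter of 10 normalized counts in 1 library, 1 was lower. Among members of mean 25 to 40, 0 were lower and the median was -0.46. Leaving out a library gave 0 to 0 members lower, with a median from -1.59 to -1.13 (4 to 32 members at an unadjusted p-value under 0.05, while all genes ranged from 8.71% to 46.6%); the fraction left with 1 library was assumed to vary like the other. The direction was kept under recomputed size factors and without a filter.

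The sign turned in several members. With totals that include the mitochondrial chromosome the log2 fold change was -3.36 for 2210408F21Rik, -3.01 for 9630028I04Rik, -2.96 for Gm39214, -2.89 for Gm45670, -2.35 for AC160336.1 and -1.50 for AA465934. With totals without it, the values were -0.37 for 2210408F21Rik and -0.0155 for 9630028I04Rik. With a pseudocount of 10 that of 9430091E24Rik was 0.0019. With a library left out, it ranged as follows. The values were -2.03 to 0.18 for Gm29237, -1.10 to 0.58 for 6330403L08Rik, -0.62 to 0.31 for AW011738, -0.61 to 0.56 for 9430091E24Rik, -0.20 to 0.17 for Gm9899 and -0.23 to 1.16 for 2210408F21Rik. No other sign turned among the 27 named members. Gm15910 and Gm43259 lost their calls with a pseudocount of 0.1 and with any library left out, and Gm43259 also with the filter on 1 library (adjusted p = 0.052). The cause was not tested. The number of reads in mitochondria limits the precision for this group.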
